A study of Mus musculus with 4 samples.

Results

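The 10 genes described here are products of the intestinal goblet cell: *Retnlb*, *Muc2*, *Tff3*, *Fcgbp*, *Zg16*, *Agr2*, *Spdef*, *Spink4*, *Muc13* and *Clca1*. They were chosen by their known expression in goblet cells and by the array values reported below, so the differences of these 10 genes are given as a description, with no test. Each was represented by 1 probe, and they are 10 of the 32585 genes or identifiers on the array, of which 20140 carried a symbol. RNA was taken from duodenum and spinal cord of littermate WT mice and of mice labelled *IP6K2*-/-, in which exon 6 of the gene for inositol hexakisphosphate kinase 2 is deleted. The mice were 20 weeks old, and after the plant-based CE-2 diet all of them, controls included, had taken the purified iVid-neo diet for 1 week and had been fasted for 48 h. The duodenum was the whole segment next to the stomach, opened and rinsed, and so held mucosa, muscle and glands together. Each combination of genotype and tissue had 1 array, and the 4 arrays lay on 1 slide. No difference between arrays therefore has a replicate check, and genotype, mouse and array cannot be told apart.

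Goblet cells are secretory cells of the intestinal epithelium that release mucus. They arise from the secretory lineage under *Atoh1* and mature under the transcription factor *Spdef*, and their granules hold the gel-forming mucin MUC2 together with proteins that bind to it, fold it or process it. In the mouse, *Retnlb*, which encodes the resistin-like molecule RELM-beta, is known as a goblet cell product that is low without a stimulus and is induced by colonizing bacteria and by the type 2 cytokines released during worm infection. Spinal cord has no goblet cells, so its arrays give the level at which these probes read without them.

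The signal of a spot is the processed intensity of the scanner software, after background subtraction. A normalized level is log2 of that signal minus the log2 75th percentile of the array, and a difference is the level on the array labelled *IP6K2*-/- minus the level on the WT array, unless tissues are compared. The 75th percentile was 905 and 971 on the spinal cord arrays (WT, then labelled *IP6K2*-/-) and 68.0 and 323 on the duodenum arrays, and 51.6 to 77.4% of 39429 probes were well above background. The WT duodenum array was thus the dimmest of the 4, and a raw signal on it is not comparable with a raw signal on another array. A probe well above background on 1 of 2 arrays gives a lower bound only. A technical SD, taken from 399 probes spotted 10 times on each array, covers spots and not mice. The *Ip6k2* probe, which the files do not place inside or outside exon 6, read 452 in WT spinal cord, 1320 in spinal cord labelled *IP6K2*-/-, 139 in WT duodenum and 572 in duodenum labelled *IP6K2*-/-. Its difference was 1.45 in the spinal cord, against the label, and −0.21 in the duodenum, so genotypes are given as labelled throughout.

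The segments upstream of the starts of 3 of these genes are shown because they are the stretches from which goblet cell transcription begins, and because *Muc2* and *Fcgbp* share a TATA-like stretch at the same distance. The RefSeq promoter table for GRCm38.p6 held 5 of the 10 genes (*Muc2*, *Fcgbp*, *Agr2*, *Spdef* and *Muc13*), and *Retnlb*, *Tff3*, *Zg16*, *Spink4* and *Clca1* are named only. Each line gives the 100 bases before the start on the plus strand, at chr7:141690240-141690339 for *Muc2*, chr7:28071136-28071235 for *Fcgbp* and chr12:35992825-35992924 for *Agr2*, with a match to TATAA or to ATAAA (the complement of TTTAT) in capitals.
Muc2: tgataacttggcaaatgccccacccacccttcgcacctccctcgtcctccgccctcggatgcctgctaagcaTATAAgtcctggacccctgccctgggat
Fcgbp: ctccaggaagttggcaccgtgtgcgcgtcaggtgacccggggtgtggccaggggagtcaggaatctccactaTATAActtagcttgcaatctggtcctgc
Agr2: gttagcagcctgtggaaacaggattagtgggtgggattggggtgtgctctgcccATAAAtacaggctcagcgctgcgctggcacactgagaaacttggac

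The letters TATAA began 28 bases before the start in *Muc2* and *Fcgbp*, and 27 bases before it in *Spdef*. Searched on both strands of the 250 bases before the start, TATAA was found in 22.8% of all 32851 promoters of the table, TTTAT (the core of sites for CDX factors) in 37.3% and GATAA (the core of GATA sites) in 22.6%. TATAA and ATAAA overlap where TATAAA occurs. Within these 250 bases *Muc2* held 4 matches to GATAA and 2 to TTTAT, most of them upstream of the stretch printed, and *Agr2* held 1 match to ATAAA, 46 bases before its start. The first *Muc13* window held 1 match to TTTAT. A match describes letters and not a site, and the arrays do not bear on binding.

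*Retnlb* had the largest difference of the 10 products. Its processed signal was 117 on the WT duodenum array and 5.86 on the duodenum array labelled *IP6K2*-/-, although the latter array was the brighter, and it was 0.974 in WT spinal cord and 3.51 in spinal cord labelled *IP6K2*-/-. It was well above background on both duodenum arrays and on neither spinal cord array. The lowest signal that counted as well above background on the duodenum array labelled *IP6K2*-/- was 4.33, so the *Retnlb* reading there lay close to the limit of measurement. In normalized terms *Retnlb* went from 0.79 to −5.78, a difference of −6.57 with a technical SD of 0.233, or 95.0-fold lower. Of 16813 genes that were well above background on both duodenum arrays, it had rank 1 from the lowest, and the next genes with a symbol were *Scgb2b15*, a secretoglobin, at −4.27 and *Hba-a2*, an alpha-globin, at −4.19. *Retnlb* was lower in the duodenum labelled *IP6K2*-/- under the main scaling and all 7 alternatives in background correction and scaling, together called the 8 scalings, with differences from −6.57 to −3.12. The smaller sizes came from normexp background correction, whose added offset of 50 compresses dim probes and which put *Retnlb* at rank 12, and from scaling on spiked-in controls, which shifts all genes alike and moved the median gene from −0.11 to 2.89. A direction is therefore also given relative to the median gene of the same scaling. On that basis the main scaling, median centring and spiked-in controls give 1 and the same value, and the deposited table repeats the quantile normalization of the 4 arrays, so the 8 scalings are not independent of each other. In bulk tissue, fewer goblet cells and less RNA per goblet cell cannot be told apart.

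**Figure D1:**
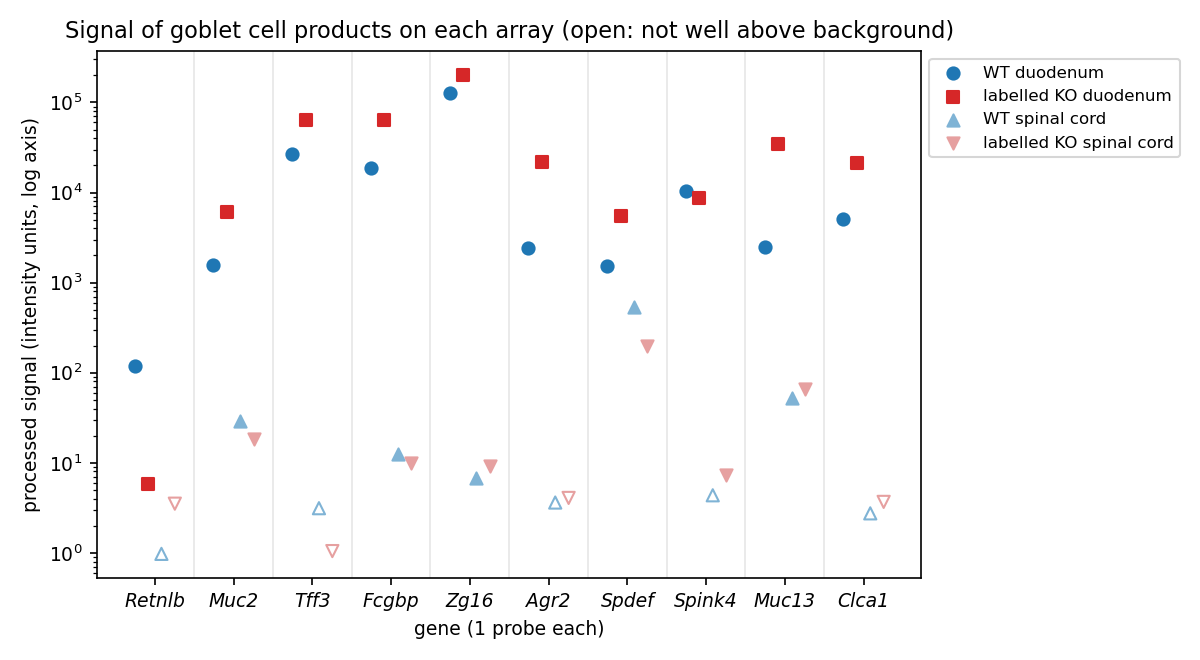
Processed signal (intensity units, log axis) of the 10 goblet cell products on each of the 4 arrays, 1 point per array, with open symbols for readings not well above background. On the WT and labelled *IP6K2*-/- duodenum arrays *Retnlb* reads 117 and 5.86 and *Spink4* 10276 and 8629, while the other 8 read higher on the array labelled *IP6K2*-/-, the brighter one, and heights of different genes cannot be compared.

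The mucins among the products differed little or were higher with the *IP6K2*-/- label. *Muc2*, the gel-forming mucin that builds the intestinal mucus layer, had a signal of 1576 on the WT duodenum array and 6074 on the duodenum array labelled *IP6K2*-/-, against 28.9 and 18.2 in the spinal cord. Its normalized level was 4.53 in WT and 4.23 in the duodenum labelled *IP6K2*-/-, a difference of −0.30 with a technical SD of 0.067. The sign of the *Muc2* difference depended on the scaling, being negative under 5 of 8 scalings and positive under 3. *Muc13*, a membrane-bound mucin made by enterocytes as well as goblet cells, read 2453 in WT duodenum, 34406 in duodenum labelled *IP6K2*-/-, 52.0 in WT spinal cord and 66.2 in spinal cord labelled *IP6K2*-/-. Its duodenal difference was 1.56, or 2.96-fold higher, and it was higher under all 8 scalings.

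The proteins that share the granule with MUC2 gave lower values or none with a settled direction. *Tff3*, the trefoil peptide secreted with mucus to aid epithelial repair, read 26657 in WT duodenum and 63961 in duodenum labelled *IP6K2*-/-, and 3.13 and 1.05, neither well above background, in the spinal cord. *Fcgbp*, which encodes a large protein that is bound to MUC2 in mucus, read 18662 and 63637 on the duodenum arrays, and in spinal cord 12.7 and 9.98. The normalized differences in the duodenum were −0.98 for *Tff3* and −0.48 for *Fcgbp*, and *Tff3* was lower under 4 scalings and *Fcgbp* under 2 of the 8, so neither had a settled direction.

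*Zg16*, which encodes a lectin that binds the cell wall of Gram-positive bacteria, read 126420 in WT duodenum and 203230 in duodenum labelled *IP6K2*-/-. Its level of 10.86 against 9.30 gave a difference of −1.56, or 2.95-fold lower, but under quantile normalization of the 4 arrays the sign turned, to 0.22. *Clca1*, a secreted metalloprotease that acts on the MUC2 network, read 5063 and 21507 on the duodenum arrays, and in spinal cord 2.74 and 3.68, neither well above background. The *Clca1* difference in the duodenum was −0.16, negative under 2 of 8 scalings.

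*Spink4*, which encodes a secreted Kazal-type protease inhibitor of goblet cells, had the second lowest difference of the 10. Its signal was 10276 in WT duodenum and 8629 in duodenum labelled *IP6K2*-/-, and 4.35 (not well above background) and 7.26 in the spinal cord. The level was 7.24 in WT against 4.74, a difference of −2.50, or 5.65-fold lower, and rank 288 from the lowest of 16813 genes. It was lower under 7 of 8 scalings and read 0.51 under scaling on spiked-in controls, still below the median gene there. Relative to the median gene of each scaling, *Spink4* was lower under all 8, from −2.38 to −1.64, and *Retnlb* from −6.46 to −2.94.

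The genes that act in making the products were higher or had no settled direction. *Agr2*, a protein disulfide isomerase of the endoplasmic reticulum that is needed for MUC2 assembly, read 2402 in WT duodenum and 21547 in duodenum labelled *IP6K2*-/-, with 3.62 and 4.07, neither well above background, in the spinal cord. Its difference was 0.92, just under 2-fold, and it was higher under all 8 scalings, by 1.03 to 1.67 relative to the median gene. *Spdef*, the transcription factor of goblet cell maturation, read 1541 and 5419 in the duodenum, a difference of −0.43 that was negative under 5 of 8 scalings. The technical SD was 0.067 for *Agr2* and for *Spdef* alike.

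Of the 10 products, then, 1 was at least 2-fold higher in the duodenum labelled *IP6K2*-/- (*Muc13*) and 3 were at least 2-fold lower (*Retnlb*, *Spink4* and *Zg16*). Over all 21434 genes well above background on at least 1 duodenum array, 7.2% were at least 2-fold higher and 11.9% at least 2-fold lower, that is 1543 and 2552 genes, or 843 and 3062 under normexp. Since the products were chosen with these values known, nothing is read from the comparison of shares. Their median difference was −0.45, whereas the median was 0.00 over the 21434 genes, with 3384 that allow no fold entered at 0, and −0.11 over the 16813 well above background on both arrays. Under quantile normalization of the 4 arrays *Agr2* and *Muc13* were at least 2-fold higher, *Retnlb* and *Spink4* at least 2-fold lower, and the median was 0.12.

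Bright genes as a whole were lower on the duodenum array labelled *IP6K2*-/- under the main scaling. Among the 835 genes with a mean duodenal level of 6 or more, the median difference was −0.73, with quartiles of −1.20 and −0.33. *Tff3* and *Fcgbp* lay between these quartiles, *Zg16* below and *Clca1* above them. For the 1273 genes with a level of 4 to 6 the median was −0.34 and the quartiles were −0.69 and 0.07. *Muc2* and *Spdef* lay within this band, *Spink4* below it, and *Agr2* and *Muc13* above it. *Retnlb* belonged to the dimmest band, below −2, where 3707 genes had a median of −0.28 and quartiles of −0.99 and 0.35.

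**Figure D2:**
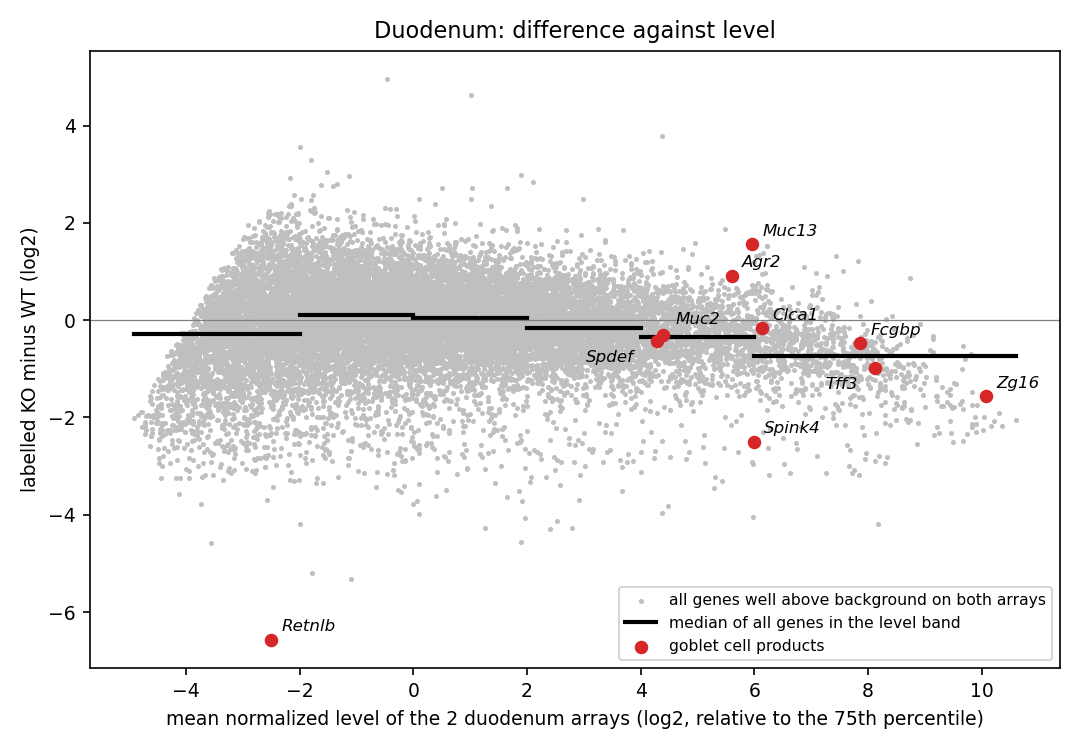
Difference between the duodenum array labelled *IP6K2*-/- and the WT array (log2, vertical) against the mean normalized level of these 2 arrays (log2, horizontal), with grey points for 16813 genes, black bars for the median of each level band and red points for the 10 goblet cell products. *Retnlb* at −6.57 is the lowest point, *Spink4* at −2.50 lies below its band, *Muc13* at 1.56 lies above its band, and the bars slope down to −0.73 at the bright end.

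**Figure D3:**
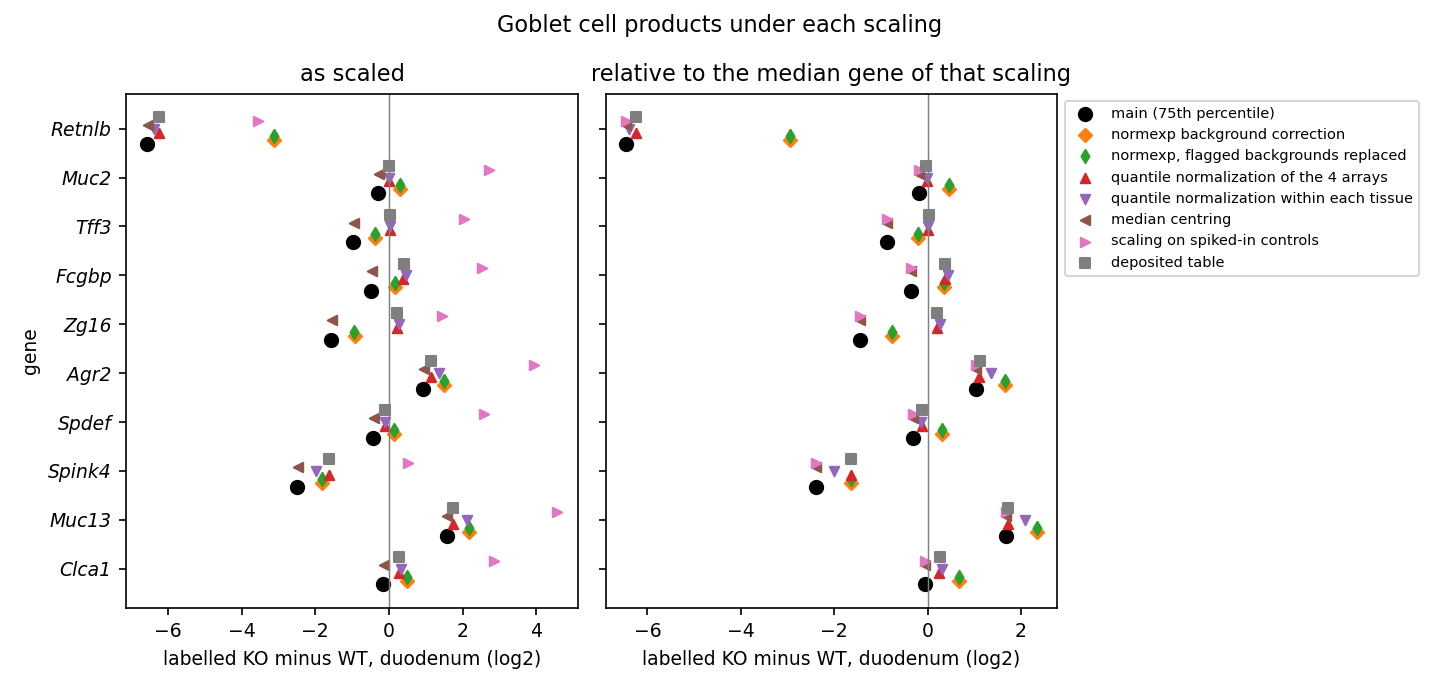
Duodenal difference (log2) of each goblet cell product under the main scaling (black) and 7 alternatives, as scaled on the left and relative to the median gene of the same scaling on the right. On the right *Retnlb* and *Spink4* lie below 0 and *Agr2* and *Muc13* above 0 under all 8, and the other 6 genes lie on either side of 0.

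The 10 products were all at least 2-fold higher in duodenum than in spinal cord in WT and on the arrays labelled *IP6K2*-/-, where 30.2% and 30.3% of all genes were. Because 5 of the 10 tissue differences in WT and 4 of the 10 with the *IP6K2*-/- label were lower bounds, the median tissue difference of the products was at least 13.34 and at least 12.84, whereas the median over all genes, bounds included, was 0.00 for either label. *Zg16* had a tissue difference of 17.94 in WT and 16.01 with the *IP6K2*-/- label, *Fcgbp* one of 14.26 and 14.23, and *Muc2* one of 9.50 and 9.97. For *Tff3* the tissue difference was at least 16.28 and at least 15.45, for *Agr2* at least 12.81 and at least 13.88, and for *Clca1* at least 13.88 on either label. For *Retnlb* the difference was at least 8.45 in WT and at least 2.04 on the arrays labelled *IP6K2*-/-. Both are lower bounds and cannot be ranked against its difference between the duodenum arrays. The labelled tissues were matched by their markers, as 9 of 9 spinal cord genes were well above background on each spinal cord array with summed levels (signal over the 75th percentile) of 393 and 390, against 20.6 and 14.7 in the duodenum. *Pdx1*, *Gata4* and *Onecut2*, which mark proximal intestine, were well above background on both duodenum arrays, and the distal genes *Hoxb13* and *Hoxd13* on neither.

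In the spinal cord, 5 products were well above background in WT and 6 with the *IP6K2*-/- label. *Spdef* was the only one with a 2-fold difference there: its signal was 538 in WT and 196 with the *IP6K2*-/- label, a difference of −1.56 with a technical SD of 0.068, lower under all 8 scalings. Over all 25216 genes of that comparison 0.865% were at least 2-fold lower and 2.28% at least 2-fold higher. *Muc2* differed by −0.77, *Fcgbp* by −0.45, *Muc13* by 0.25 and *Zg16* by 0.36, with signals of 6.71 and 9.28 near the lowest readings of the arrays, and *Spink4* by at least 0.60. *Muc13* turned negative under 1 scaling and *Zg16* under 2. The *Spink4* bound fell to as little as 0.01, and gave a fold under only 7 of 8 scalings. *Retnlb*, *Tff3*, *Agr2* and *Clca1* were well above background on neither spinal cord array.

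The genes whose pattern over the 4 arrays was most like that of *Retnlb* were sought among 303 genes with the same background flags, by the Euclidean distance between the 4 normalized values centred on their own mean. The nearest were *a* (nonagouti) at a distance of 3.09, the histone gene *H3c1* at 3.25, the mast cell protease gene *Mcpt4* at 3.33, the transporter gene *Slc10a5* at 3.45 and the cytochrome gene *Cyp3a44* at 3.59. Their duodenal differences ran from −3.29 for *H3c1* to −1.85 for *Cyp3a44*, all of a smaller size than that of *Retnlb*. None of the 5 is among the goblet cell genes listed here.

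Close relatives of the products went in several directions. Of 14 genes in these families, 11 were well above background on at least 1 duodenum array, 3 at least 2-fold higher and 3 at least 2-fold lower, with a median of −0.69. Under normexp the counts were 1 higher and 1 lower, and under quantile normalization of the 4 arrays the median was 0.01. *Tff1*, the trefoil peptide of the gastric surface, read 380 in WT duodenum and 24914 in duodenum labelled *IP6K2*-/-, a difference of 3.79, higher by 3.50 or more under all 8 scalings. *Tff2*, the trefoil peptide of gastric neck cells and Brunner glands, read 77412 and 228260, a difference of −0.69 that was positive under 4 of 8 scalings. *Clca4a*, a relative of *Clca1*, read 758 and 440, a difference of −3.03, lower than the median gene, at −2.92 to −2.15 over the 8 scalings.

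*Clca4b* differed by −1.31 and *Spink1*, a secreted inhibitor of trypsin, by −1.28, and relative to the median gene *Clca4b* was lower under all 8 scalings and *Spink1* under 7. *Clca3a1* at 1.29 and *Clca3a2* at 1.53 were higher under all 8, but only 0.59 and 0.24 under normexp. The resistin family is added here because it holds *Retnlb*, and these genes were picked after their values were seen. *Retnlg* differed by −0.84, *Retnla* read 1.04 (not well above background) in WT duodenum and 20.3 with the *IP6K2*-/- label, which allows no fold, and *Retn* was well above background on neither duodenum array. Whether related transcripts bind the *Retnlb* probe was not tested.

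Of 13 other mucins listed, 6 were on the array and 5 were well above background, 2 at least 2-fold higher and 1 at least 2-fold lower, with a median of 0.12. Under normexp none was 2-fold higher and the median was −0.33. *Muc5ac*, the gel-forming mucin of the gastric surface, read 6.27 in WT duodenum and 291 with the *IP6K2*-/- label, a difference of 3.29, but only 0.84 under normexp, and its WT reading lay close to the lowest signal well above background there, 4.30. *Muc1*, a membrane mucin, differed by 1.09 but was −0.33 under normexp. *Muc20* differed by −1.59, with −0.56 for its other probe, and *Muc5b*, a gel-forming mucin best known from airways, by −0.84. Both were lower than the median gene under all 8 scalings. *Muc4*, another membrane mucin, differed by 0.12, with −0.32 for its other probe.

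The factors that direct goblet cell fate differed little. All 12 transcription factors and Notch genes listed were well above background, none was 2-fold apart in either direction, and the median was −0.21. Under normexp 1 was 2-fold higher and 1 lower. *Klf4*, which acts late in goblet cell differentiation, differed by −0.81 and was lower than the median gene under all 8 scalings, at −0.70 to −0.23. *Creb3l1*, a transcription factor of secretory cells, differed by −0.27, and the intestinal identity factors *Cdx1* and *Cdx2* by −0.47 and 0.03, with *Creb3l1* and *Cdx1* positive under 3 scalings and *Cdx2* under all 8. *Atoh1*, picked after its value was seen because it sets the secretory lineage, read 123 in WT duodenum and 386 with the *IP6K2*-/- label, a difference of −0.59. Like *Klf4*, it was lower than the median gene under all 8 scalings, at −0.60 to −0.08.

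For mucin glycosylation and folding, 20 of 22 genes were well above background, with 4 at least 2-fold higher, 2 at least 2-fold lower and a median of −0.07. Under normexp 1 was higher and 3 were lower. *St6galnac1*, which adds sialic acid to the first sugar of O-glycans, differed by −1.81, while its other probe gave −0.69. *Galnt7*, which extends early O-glycosylation, differed by −1.61, and like *St6galnac1* it was lower than the median gene under all 8 scalings. *Pdia6* at 1.36 and *Pdia5* at 1.08, both protein disulfide isomerases like *Agr2*, were higher under all 8 scalings, *Pdia5* by only 0.24 under normexp. The transporter of activated sialic acid, *Slc35a1*, differed by 1.21 but was −0.35 under normexp. *Fut2*, the fucosyltransferase of secretions, was at least 1.28 higher, with a fold under only 6 of 8 scalings. *Galnt12* at 0.33 and *C1galt1c1*, the chaperone of core 1 synthesis, at −0.30 were among the brightest of this list, and *C1galt1c1* was positive under 3 scalings.

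Among 25 genes of granule release and other goblet cell markers, 22 were on the array and well above background, 3 at least 2-fold higher and 3 at least 2-fold lower, with a median of 0.34, or 0.03 under normexp. *Ang4*, an antimicrobial ribonuclease of Paneth and goblet cells, read 8771 in WT duodenum and 3792 with the *IP6K2*-/- label, a difference of −3.46, lower than the median gene, at −3.34 to −2.53 over the 8 scalings. *Itln1*, a lectin of the same cells, read 44311 and 48944, a difference of −2.10, and *Cldn4*, a tight junction protein, differed by −1.85, and relative to the median gene both were lower under all 8 scalings. *Rab27a* and its partner *Sytl2*, which tether secretory granules, were at least 2.06 and at least 1.67 higher. Neither was well above background in WT duodenum, and each gave a fold under only 6 of 8 scalings. *Lypd8*, a secreted protein that binds bacterial flagella, differed by 1.22. *Guca2a* (guanylin) differed by −0.05 and *Dmbt1*, a mucin-like scavenger protein, by −0.08, and both were higher than the median gene under all 8 scalings.

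**Figure D4:**
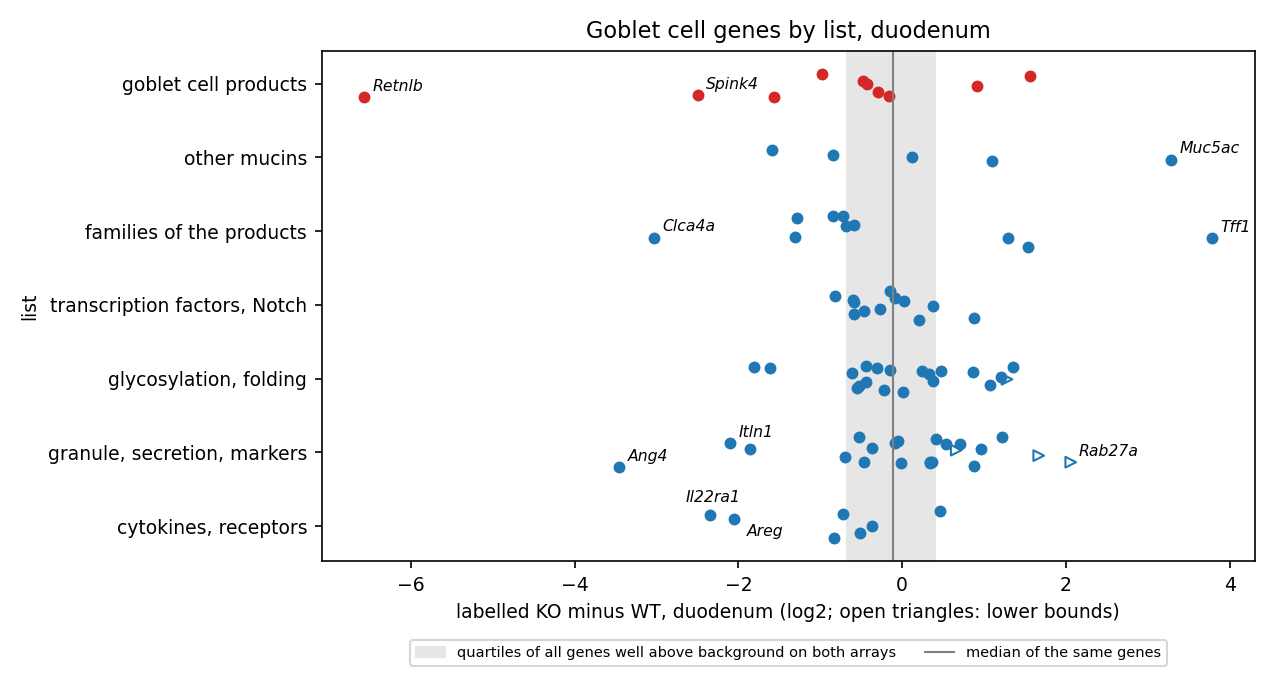
Difference between the duodenum array labelled *IP6K2*-/- and the WT array (log2) for each gene of the goblet cell lists, with the products in red, lower bounds as open triangles, and the quartiles and median of 16813 genes as a grey band and line. *Retnlb* at −6.57 lies farthest left and *Tff1* at 3.79 farthest right, and the 12 transcription factors and Notch genes lie between −0.81 and 0.88.

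The cytokines known to induce *Retnlb* were hardly read by the arrays. Of 15 cytokines, receptors and mediators, 10 were well above background on at least 1 duodenum array, 3 of these with no fold, and the probes for *Il4*, *Il5*, *Il9*, *Il13* and *Il25* were well above background on neither. No gene of this list was at least 2-fold higher, 2 were at least 2-fold lower, and the median was −0.44, whereas under normexp 4 were lower and the median was −0.67. *Il22ra1*, the epithelial receptor chain for IL-22, read 15.5 in WT duodenum and 14.6 with the *IP6K2*-/- label, a difference of −2.34. *Areg*, a growth factor of the EGF family, read 78.1 and 89.6, a difference of −2.05. *Il4ra*, the receptor chain shared by IL-4 and IL-13, differed by −0.83, with −2.04 for its other probe, and the alarmin gene *Il33* by −0.72. These 4 were lower than the median gene under all 8 scalings. *Stat6*, which acts below IL-4 and IL-13, differed by 0.46, although of its 3 probes the lowest gave −2.52.

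Markers of other cells differed between the duodenum arrays as well. The summed level of the 10 products was 2870 in WT and 1327 with the *IP6K2*-/- label, or 1011 and 698 without *Zg16*, the brightest of them, whose direction turned under 4 scalings. That of 11 enterocyte genes was 2686 and 1355, with all 11 well above background on both arrays, 1 at least 2-fold higher, 3 at least 2-fold lower and a median of −0.10, which was 0.45 under quantile normalization of the 4 arrays. For 7 general epithelial genes the sums were 555 and 380, with none 2-fold apart. Of 5 genes measured from the Paneth cell list, which include *Itln1* and *Clps*, 3 were at least 2-fold lower and 1 higher. Their sum was 2945 and 824, but none of the 5 was 2-fold lower under quantile normalization of the 4 arrays. That sum was led on both arrays by *Clps*, which encodes colipase, a cofactor of pancreatic lipase, and which differed by −2.13. It therefore does not stand for Paneth cells alone.

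For 8 pancreatic acinar genes, 5 were at least 2-fold lower and the sum was 10600 in WT and 3613 with the *IP6K2*-/- label, but under quantile normalization of the 4 arrays none was lower, 1 was higher and the median went from −1.37 to 0.02. For 7 smooth muscle genes, 2 were at least 2-fold lower, none of them under normexp, and the sum was 131 and 74.2. Of 6 gastric surface and Brunner gland genes, a list that holds *Tff1*, *Tff2* and *Muc5ac*, 4 were at least 2-fold higher, with a median of 2.15, and the sum was 1278 and 1064, which *Tff2* and *Gkn3* lead. Over the alternatives other than spiked-in controls, 3 to 5 were higher. In that list *Gkn2*, a gastrokine of the gastric surface, read 27.6 and 3238, a difference of 4.63. No defining marker of enterocyte, acinar or smooth muscle cells was absent from either duodenum array, and the part of these cells in the values of the goblet cell products was not tested.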

How the data were processed

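Total RNA was labelled with Cy3 and hybridized to 1-colour Agilent arrays. The authors deposited a table of log2 values and the output of Agilent Feature Extraction 11.5.1.1, whose processed signal, an intensity, had been background-subtracted and detrended by that software. Column by column, the deposited log2 table differed from quantile normalization of the 4 arrays' processed signals, rebuilt here, by a median of 0.000531 to 0.00226, and so has the scale and direction of log2 signal, with column medians of 5.11 to 5.12.

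Here, log2 of the processed signal minus the 75th percentile of each array was used. Control spots and outlier spots (89 to 133 of 43020 per array) were left out, no spot was saturated, spots of a probe were averaged, and a gene took its probe of highest average level. Symbols came from RefSeq accessions (GRCm38.p6), with 25862 of 26391 accessions matched. Each group being 1 array, differences were left untested, and a call is a difference of at least 2-fold. Lower bounds were set against the array on which the probe did not pass the background flag. There the smallest level that passed the flag or that of the probe itself was used, whichever was higher. Technical SDs are the median over the 50 probes nearest in brightness, combined over both arrays. The number of arrays limits the precision. Genes named beside the products are, per list, up to 4 of the brightest and those at least 2-fold apart. The members and lists were chosen with earlier results of these data known. The alternatives were normexp (limma 3.58.1, R 4.3.3, offset 50), normexp with flagged backgrounds replaced, quantile normalization of all arrays or within tissue, median centring, spiked-in controls, the deposited table, averaging the probes of a gene, a filter on both arrays and 1.5-fold. Python 3.11.15 and pandas 2.3.3 did the rest. The functions were tested on simulated data.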

Additional observations from a re-analysis of the deposited data

Results flagged for a closer look

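Under the main scaling *Zg16* was lower in the duodenum labelled *IP6K2*-/- (−1.56) and higher in the spinal cord labelled *IP6K2*-/- (0.36, from signals of 6.71 and 9.28), a gap of −1.93 between the tissues. Neither sign of *Zg16* was settled. Its duodenal difference was positive under 4 of 8 scalings. In the spinal cord it was negative under 2 of 8, and the technical SD was 0.314. *Spink4* was likewise lower in the duodenum (−2.50) and higher in the spinal cord (at least 0.60), a gap of −3.10 or more in size. Its spinal cord signals were 4.35, not well above background, and 7.26. That bound fell to 0.01 under normexp with flagged backgrounds replaced. With 1 array per group in each tissue these differences between tissues were not tested.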

How the results depend on the processing

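*Retnlb* kept its direction in the duodenum throughout. Its difference was −3.12 under normexp, with or without flagged backgrounds replaced, −6.24 under quantile normalization of the 4 arrays, −3.56 under spiked-in controls and −6.23 in the deposited table. The median of the products in the duodenum turned to 0.15 under normexp, with or without replaced backgrounds, 0.12 under quantile normalization of the 4 arrays, 0.15 within tissue, 2.55 under spiked-in controls and 0.13 in the deposited table. *Zg16* turned to 0.22 under quantile normalization of the 4 arrays and in the deposited table, 0.27 within tissue and 1.44 under spiked-in controls, and *Spink4* to 0.51 under the last. The cause was not tested. The count of products at least 2-fold higher was 2 in place of 1 under normexp, with or without replaced backgrounds, both quantile normalizations, the deposited table and the 1.5-fold threshold, and 8 under spiked-in controls, where the count lower was 1 in place of 3. In the spinal cord the median was −0.10 under the main scaling and −1.84 under normexp, but −0.09 under normexp with flagged backgrounds replaced.

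For WT tissues the median was 6.50 under normexp, 8.68 with replaced backgrounds, 12.13 and 10.48 under quantile normalization of 4 arrays and within tissue, 8.31 under spiked-in controls and 12.12 in the deposited table. On the arrays labelled *IP6K2*-/- the same settings gave 9.66, 9.66, 12.08, 10.40, 10.98 and 12.08, and median centring gave 13.12. Of all genes in the duodenum comparison, 1543 (higher) and 2552 (lower) passed 2-fold under the main scaling, but 20613 and 18 under spiked-in controls, and 843 and 3062 under normexp. No paired analysis was possible because within a tissue each label is 1 array, and the tissue comparisons, made within each label, were not tested. A tally of the recomputed values leaves out the *Retnlb* duodenum difference and the medians and counts of the products. Of the rest, 142 moved by less than the technical spread (for counts, by 1.5 times or less). These include values under averaging of probes, which cannot move a product, as each has 1 probe. A further 116 moved by more, 37 of these past 0. Another 5 that were at least 2-fold apart changed sign, all of them duodenal differences of *Zg16* or *Spink4* under different scalings. Readings near 5, such as *Retnlb* in the duodenum labelled *IP6K2*-/-, are limited by the signal over background.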
